A study of Mus musculus with 9 samples.

Results

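R-spondins are secreted proteins that raise the response of a cell to Wnt ligands, and the Lgr receptors are the cell-surface proteins that bind them. The genes described here are the 4 R-spondin genes of the mouse (Rspo1, Rspo2, Rspo3 and Rspo4) and the 3 Lgr genes whose products bind R-spondin (Lgr4, Lgr5 and Lgr6). They were chosen by gene symbol and make up 7 of the 43548 gene identifiers in the expression table. Of the 7 members, 6 passed the filter on low values that 18714 genes passed, and Rspo4 did not. In the Wnt pathway a Wnt ligand binds a Frizzled receptor together with a co-receptor, Lrp5 or Lrp6. The transmembrane ubiquitin ligases Znrf3 and Rnf43 mark Frizzled receptors for removal, and an R-spondin bound to an Lgr receptor takes the ligase itself off the membrane, so that more Frizzled stays at the surface. In the skull and skin, Wnt signalling is known for its part in the choice between bone and cartilage and in the formation of dermis and hair follicles.

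RNA was sequenced from the heads of mouse embryos of a mixed strain at E14.5, a midgestation stage at which the skull bones begin to form. MCAGF8 mutants carry Msx2-Cre and the CAGF8 allele, which gives Fgf8b, a secreted fibroblast growth factor, once Cre has acted. Msx2-Cre is active in the ectoderm of the head and not in the mesenchyme beneath it, so the tissue collected lay beneath the cells in which Cre acts. The controls are labelled wildtype. By the breeding described in the study's methods, CAGF8 homozygotes were crossed with Msx2-Cre mice, so control offspring without Cre also carried the CAGF8 allele in its inactive form. Cranial vault tissue, which forms the roof of the skull, was collected from MCAGF8 mutants and from controls after the skin had been peeled off, and cartilage of the cranial base was collected from controls only. Each of these 3 groups was 9 tissue samples combined into 3 pools, and each pool gave 1 library. Whether control vault and control base pools came from the same embryos was not stated, and the base comparison with the mutant differs in both tissue and genotype.

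The 9 libraries differed in their mixture of tissues, and the values that touch the members are given here once. Expression is in FPKM, fragments per kilobase of transcript scaled to the number of mapped reads, and the sequencing depth of each library was unknown from these values. The summed level of 12 osteoblast markers ran from 4046 to 7308 FPKM in the control vault, from 2245 to 2959 in the MCAGF8 vault and from 998.5 to 2415 in the control base. The summed level of 12 chondrocyte markers was 1010, 9956 and 1569 FPKM in control base replicates 1, 2 and 3, so the tissue labelled as cartilage exceeded the control vault range of 1993 to 2758 in replicate 2 and was under it in the other two. In the MCAGF8 vault this sum was 2727, 4509 and 4978 FPKM, and 11 of the 12 genes were higher than in the control vault, with none called. The summed level of 11 dermis and hair follicle mesenchyme markers ran from 2706 to 2773 FPKM in the MCAGF8 vault, above the control vault range of 2031 to 2548, and from 874.5 to 1772 in the control base. Col2a1, the main collagen of cartilage, was at 162.8, 2292 and 268.2 FPKM in control base replicates 1, 2 and 3. Skeletal muscle markers, 14 genes, summed to between 1928 and 11970 FPKM in the control base, to between 1026 and 6336 in the control vault and to between 56.2 and 233.7 in the MCAGF8 vault, where Mb and Ttn were under 1. Epidermal markers, 15 genes, summed to between 39.9 and 144.1 FPKM in the control vault, to between 469.8 and 1257 in the MCAGF8 vault and to between 124.7 and 826.3 in the control base, although the skin had been removed. Pearson's r between libraries of 1 group, on log2 values over all genes tested, was 0.97 to 0.974 in the control vault, 0.959 to 0.98 in the MCAGF8 vault and 0.904 to 0.946 in the control base. In tissue samples of this kind, fewer cells of a type and less RNA per cell cannot be told apart.

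**Figure D1:**
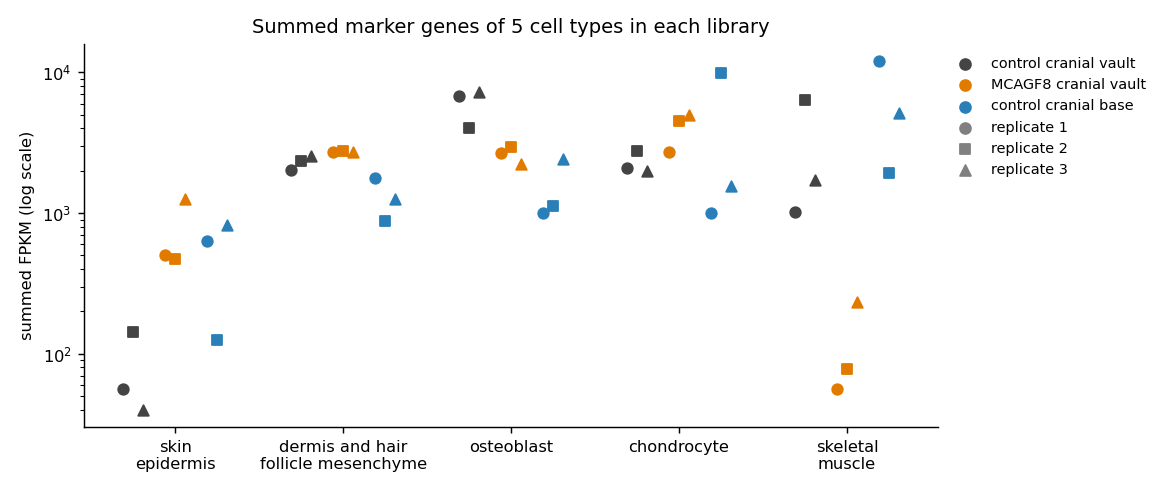
Summed FPKM (log axis) of the marker genes of 5 cell types in each of the 9 libraries. The cell types lie side by side in 1 panel, with the libraries grouped as control vault, MCAGF8 vault and control base. Control base replicate 2 had the highest chondrocyte sum, 9956, while the other base libraries were at 1010 and 1569, and the MCAGF8 vault had the lowest muscle sums.

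In the GENCODE M21 annotation of GRCm38, matched by Ensembl identifier, all 7 are protein coding. Rspo1 (ENSMUSG00000028871) spans chr4:124986430-125009099 on the plus strand, Rspo2 (ENSMUSG00000051920) spans chr15:43020794-43170826 on the minus strand, and Rspo3 (ENSMUSG00000019880) spans chr10:29452416-29535867 on the minus strand. Rspo4 (ENSMUSG00000032852) spans chr2:151842927-151874668 on the plus strand, and Lgr4 (ENSMUSG00000050199) is on the same strand of that chromosome at chr2:109917647-110014257. Lgr5 (ENSMUSG00000020140) spans chr10:115450311-115587780 and Lgr6 (ENSMUSG00000042793) spans chr1:134983301-135105276, both on the minus strand. The merged exons number 5 or 6 in the R-spondin genes and 17 to 20 in the Lgr genes, whose exonic length is 5884 to 10264 bases against 1938 to 5112 for the ligands. Annotated antisense genes overlap exons of Rspo1 (Gm12930) and Rspo3 (Gm48159). The library kit kept the strand of the RNA, but whether reads were counted by strand was not stated. Gm12930 was at 0 in 8 libraries and at 0.108 FPKM in the other.

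Before any comparison, 3 genes of the family stood out by level. FPKM is scaled by transcript length, so levels of different genes can be set side by side. In the control vault Rspo1 was at 26.8 ± 6.40 FPKM (SD, n = 3), Lgr4 at 25.1 ± 3.63 and Rspo3 at 25.1 ± 1.74, and the libraries of neighbours in this order overlapped. Rspo2 and Lgr5 followed at 8.18 ± 2.96 and 6.74 ± 2.27 FPKM, again overlapping each other but not Rspo3. Lgr6 was lower still at 2.92 ± 1.20 FPKM, and Rspo4 was lowest at 0.190 ± 0.0305. Among all genes tested, 66.1% had a lower control vault mean than Rspo1, 40.7% a lower mean than Rspo2 and 25.5% a lower mean than Lgr6.

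In the MCAGF8 vault the same 3 genes led, in the order Lgr4, Rspo1 and Rspo3 with overlapping libraries, followed by Lgr5 and Rspo2, which also overlapped, then Lgr6 and Rspo4. In the control base Lgr4 stood above Rspo3 in every library, while Rspo3, Rspo1, Lgr5 and Rspo2 followed with each neighbour overlapping the next, then Lgr6 and Rspo4.

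**Figure D2:**
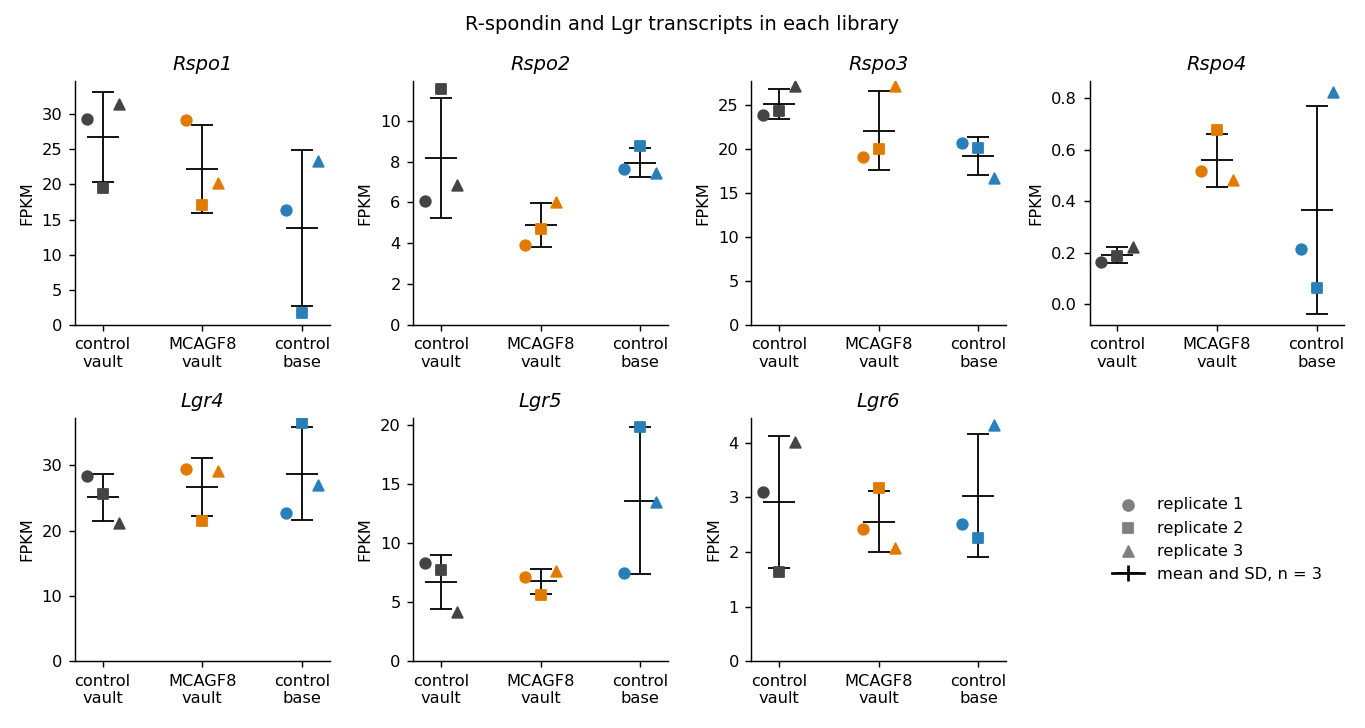
Level of each R-spondin and Lgr gene in FPKM (linear axes, 1 panel for each gene, each with its own scale) in the 3 libraries of each group, with the group mean as a line. Rspo2 was between 3.93 and 6.04 in the MCAGF8 vault, below all control libraries in deposited FPKM, an order that depends on scaling. The control base libraries ran from 1.65 to 23.4 in Rspo1 and from 7.44 to 19.8 in Lgr5.

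The R-spondins are described first. Rspo2, an R-spondin known for its part in limb, face and lung development, was at 6.09, 11.6 and 6.87 FPKM in control vault replicates 1, 2 and 3. It was at 3.93, 4.67 and 6.04 FPKM in the MCAGF8 vault and at 7.65, 8.76 and 7.44 FPKM in the control base. In deposited FPKM every MCAGF8 library was below every control library of either tissue. The highest mutant library, replicate 3, and the lowest control vault library, replicate 1, lay close together. Their FPKM sums over all genes were 849053 and 929728. Control vault replicate 3 and control base replicates 1 and 3 had larger sums, 1131826, 1315981.5 and 1122988.7. At equal sums mutant replicate 3 would lie above each of these control libraries, so the non-overlap depends on scaling in both tissues. On the log2(FPKM + 1) scale, which understates changes of low genes, the MCAGF8 vault minus control vault difference was -0.61 ± 0.262 (SE), with a 95% interval from -1.20 to -0.023. The mean was 59.7% of the control vault mean. The Benjamini-Hochberg adjusted p over all genes tested was 0.752 in limma, a linear model with variances moderated across genes, so the difference did not pass the test, which asked for an unadjusted p under 0.05 and an adjusted p under 0.1. By unadjusted p Rspo2 ranked 1073 in this comparison, in which 6.34% of genes tested had an unadjusted p under 0.05 and 19.2% had groups that did not overlap. Against the control base the difference was -0.62 ± 0.262 (95% interval from -1.21 to -0.0313, adjusted p = 0.233). After rescaling to equal FPKM sums, limma gave -0.46 against the control vault (adjusted p = 0.876) and -0.44 against the control base (adjusted p = 0.487). The control base and control vault differed by 0.01 in Rspo2, with an interval from -0.579 to 0.596. The control vault library with the highest Rspo2, replicate 2, also had the highest muscle marker sum of that group, 6336 FPKM against 1026 and 1730. Without that library the vault difference was -0.36 (adjusted p = 1.00), and other processing choices put the adjusted p between 0.397 and 1.00. In the control base the library with the highest Rspo2, replicate 2, had the lowest muscle sum, 1928 FPKM against 11970 and 5179. The part of muscle in the Rspo2 values was not tested.

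Rspo1, an R-spondin known for its part in ovary development, was the ligand with the highest control vault mean. Its control vault libraries were at 29.4, 19.5 and 31.5 FPKM and its MCAGF8 vault libraries at 29.2, 17.1 and 20.3 FPKM. The vault groups overlapped, and the mutant minus control difference was -0.27 ± 0.690 on the log2 scale, with an interval from -1.81 to 1.28 and an adjusted p of 0.985. It was -0.47 when either MCAGF8 replicate 1 or control vault replicate 2 was left out, -0.10 without MCAGF8 replicate 2, -0.14 without control vault replicate 3 and -0.10 after rescaling to equal FPKM sums. The wide interval came with the control base, where Rspo1 was at 16.4, 1.65 and 23.4 FPKM. Replicate 2 of that group was 14.2-fold below replicate 3. The coefficient of variation of Rspo1 in the control base was 80.4%, and 92.9% of the genes tested had a lower one. This library was the one with the high chondrocyte sum, and its sum of 11 dermis and hair follicle mesenchyme markers was 874.5 FPKM against 1772 and 1264 in the other base libraries. Between base replicates 1 and 3 the order was the reverse, with the higher dermal sum and the lower Rspo1 in replicate 1. The MCAGF8 vault had higher dermal sums than the control vault, 2706 to 2773 FPKM against 2031 to 2548. Its Rspo1 mean was lower, 22.2 against 26.8 FPKM. That the cell mixture sets the Rspo1 level was not tested.

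With all libraries, Rspo1 in the control base minus control vault was -1.39 ± 0.690 (adjusted p = 0.463), and MCAGF8 vault minus control base was 1.12 ± 0.690 (adjusted p = 0.409). Without control base replicate 2 these were -0.40 (adjusted p = 0.480) and 0.14 (adjusted p = 0.776), so the size of both differences rested on 1 library. Without control base replicate 3 the mutant vault minus base difference was 1.74. Other processing choices put the adjusted p between 0.273 and 0.803 for base minus control vault and between 0.228 and 0.776 for mutant vault minus base.

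Rspo3, an R-spondin known for its part in blood vessel and placenta development, had the lowest coefficient of variation of the 7 genes in the control vault, 6.95%, at 23.9, 24.3 and 27.1 FPKM. It was at 19.1, 20.0 and 27.2 FPKM in the MCAGF8 vault, where 2 libraries lay below the control vault and 1 just above it. The vault difference was -0.19 ± 0.189 with an interval from -0.615 to 0.231 (adjusted p = 0.969). It was -0.34 without MCAGF8 replicate 3, -0.099 without MCAGF8 replicate 1 and -0.026 after rescaling to equal FPKM sums. In the control base Rspo3 was at 20.7, 20.1 and 16.7 FPKM, below every control vault library in deposited FPKM. The FPKM sums over all genes of base replicate 2 and control vault replicate 2 were 793249 and 1020108, so this non-overlap depends on scaling. The base minus control vault difference was -0.38 ± 0.189 (interval from -0.799 to 0.0475, adjusted p = 0.471), and 15.5% of genes tested did not overlap between these groups. The mutant vault and control base overlapped, with a difference of 0.18 (adjusted p = 0.649).

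Rspo4, an R-spondin known for its part in nail formation, was the lowest member in each group. It was at 0.161, 0.186 and 0.222 FPKM in the control vault and at 0.516, 0.675 and 0.483 FPKM in the MCAGF8 vault. The mutant libraries were all above the control libraries, and their mean was 2.94 times the control mean. Rspo4 failed the filter on low values and has no result in the main test. In a fit over all genes without the filter, its difference of 0.39 had an adjusted p of 0.830. The control base was at 0.212, 0.0619 and 0.823 FPKM and overlapped both vault groups. The 2 base libraries with the higher Rspo4 levels, replicates 1 and 3, also had the higher epidermal marker sums, 630.7 and 826.3 FPKM against 124.7, and the mutant vault had higher epidermal sums than the control vault. Within the MCAGF8 vault the order was the reverse. Replicate 3 had the highest epidermal sum, 1257 FPKM, and the lowest Rspo4, and replicate 2 had the lowest sum, 469.8 FPKM, and the highest Rspo4. The part of epidermis in the Rspo4 values was not tested.

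The receptors follow. Lgr4, the receptor of the family found in the widest range of tissues, was at 28.4, 25.7 and 21.2 FPKM in the control vault and at 29.4, 21.6 and 29.1 FPKM in the MCAGF8 vault. The groups overlapped and differed by 0.08 ± 0.224 on the log2 scale (adjusted p = 0.987). The interval from -0.419 to 0.583 leaves room for a mutant level between 0.748 and 1.5 times the control level. In the control base Lgr4 was at 22.7, 36.5 and 27.0 FPKM, which overlapped both vault groups, with differences of 0.17 from the control vault (adjusted p = 0.899) and of -0.09 for the mutant vault minus the base (adjusted p = 0.879).

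Lgr5, a marker of stem cells in the gut and the hair follicle, was at 8.36, 7.72 and 4.15 FPKM in the control vault and at 7.14, 5.61 and 7.65 FPKM in the MCAGF8 vault. The vault groups overlapped and differed by 0.05 ± 0.355, with an interval from -0.747 to 0.845 (adjusted p = 0.997). In the control base Lgr5 was at 7.44, 19.8 and 13.5 FPKM. Of these libraries 2 were above all vault libraries and replicate 1 lay among them. The base mean was 2.02 times the control vault mean, a difference of 0.87 ± 0.355 (interval from 0.0719 to 1.66, adjusted p = 0.329). The mutant vault minus base difference was -0.82 ± 0.355 (interval from -1.61 to -0.0229, adjusted p = 0.243). Neither passed the test. Without control base replicate 1, the library with the highest muscle sum (11970 FPKM), both passed, at 1.22 (adjusted p = 0.0953) and -1.17 (adjusted p = 0.0846). Without replicate 2, the library with the high chondrocyte sum, neither did, at 0.56 (adjusted p = 0.391) and -0.51 (adjusted p = 0.338). The adjusted p lay between 0.0953 and 0.785 and between 0.0846 and 0.505 under the processing choices tried. The part of either tissue in the Lgr5 values was not tested.

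Lgr6, a marker of stem cells in the skin, was at 3.10, 1.63 and 4.01 FPKM in the control vault, at 2.42, 3.16 and 2.08 FPKM in the MCAGF8 vault and at 2.51, 2.27 and 4.32 FPKM in the control base. All 3 groups overlapped. The differences were -0.10 ± 0.304 between the vaults (interval from -0.784 to 0.579, adjusted p = 0.990), -0.16 for mutant vault minus base (adjusted p = 0.830) and 0.06 for base minus control vault (adjusted p = 0.988).

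Counted over the family, none of the 6 members tested passed the limma test in any comparison. Between MCAGF8 and control vault 0 of 6 were called, where 0.604% of all genes tested were (113 of 18714). In limma 1 of 6 (Rspo2) had an unadjusted p under 0.05 against 6.34% of all genes. Groups did not overlap in 1 of 6 (Rspo2) against 19.2%. Rspo4, outside the test, was the other member whose vault groups did not overlap. Between MCAGF8 vault and control base 0 of 6 were called against 8.39% of all genes, 2 of 6 (Rspo2 and Lgr5) had an unadjusted p under 0.05 against 19.6%, and 1 of 6 (Rspo2) did not overlap against 21.9%. Between control base and control vault 0 of 6 were called against 3.06%. An unadjusted p under 0.05 was found in 1 of 6 (Lgr5) against 12.8%, and 1 of 6 (Rspo3) did not overlap against 15.5%. The comparisons share libraries in pairs and are not separate evidence. The median difference of the 6 genes was -0.15, -0.12 and 0.03 in these 3 comparisons, and that of all genes tested was -0.01, -0.07 and 0.07.

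**Figure D3:**
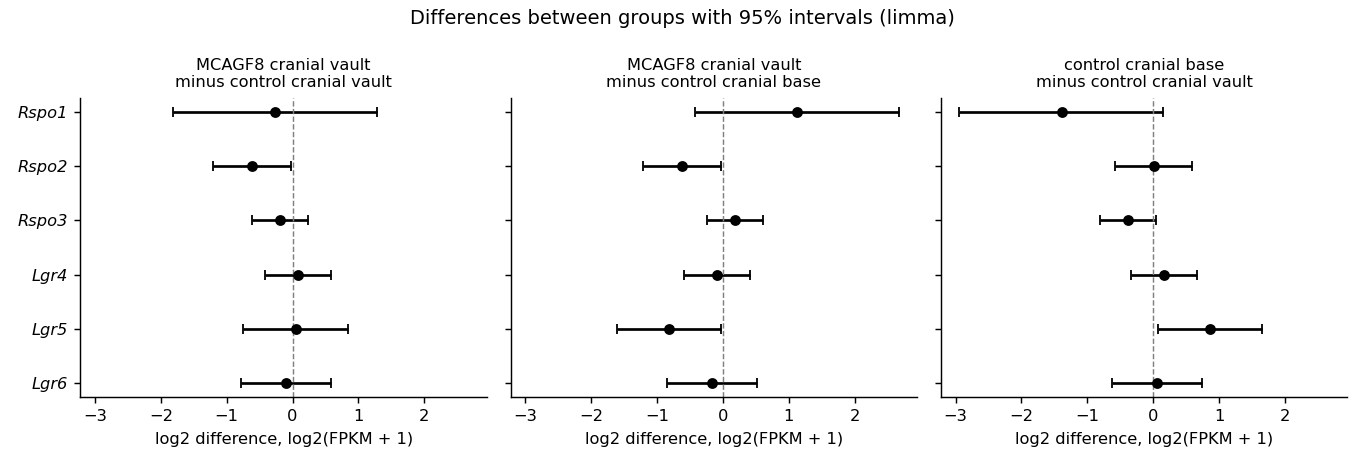
Difference in log2(FPKM + 1) of the 6 members tested in each of the 3 comparisons, with points for the limma estimate and bars for its 95% interval. The vault intervals of all members but Rspo2 include 0, and the bar of Rspo1, from -1.81 to 1.28, is the widest of the vault comparison.

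The ligands and receptors can also be added up, since FPKM is scaled per length. The 4 R-spondins summed to 59.5, 55.6 and 65.7 FPKM in the control vault and to 52.7, 42.5 and 54.0 FPKM in the MCAGF8 vault. All 3 mutant libraries were below the control libraries, and 19.2% of all genes tested did not overlap between these groups. FPKM sums over all genes were unequal. They were 847560.5, 1041401 and 849053 in the MCAGF8 vault and 929728, 1020108 and 1131826 in the control vault. The R-spondin totals were not rescaled for this. Mutant replicates 1 and 3 had smaller FPKM sums than every control vault library. At equal sums they would lie above control vault replicates 2 and 3, so the non-overlap of the totals depends on scaling. In the base the R-spondins summed to 44.9, 30.5 and 48.4 FPKM. Because the sum follows its highest members, Rspo1 and Rspo3, it was not tested as a further result. Rspo1 made up 44.1% of the sum in the control vault, 44.4% in the mutant vault and 30.1% in the base, where its share in replicate 2 was 5.41%. Rspo2 made up 13.8%, 9.89% and 20.4%, and Rspo4 0.315%, 1.16% and 0.792%, in the same order. The 3 Lgr genes summed to 39.9, 35.1 and 29.4 FPKM in the control vault, 39.0, 30.3 and 38.9 in the mutant vault, and 32.7, 58.6 and 44.8 in the base. Lgr4 carried most of this sum in each group, at 72.3%, 73.8% and 64.0%. The Lgr5 share was 22.8% to 33.8% in base libraries, above the 14.1% to 22% of the control vault and the 18.3% to 19.7% of the mutant vault.

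The ratio of summed R-spondin to summed Lgr was 1.49, 1.59 and 2.24 in the control vault and 1.35, 1.40 and 1.39 in the MCAGF8 vault. The mutant libraries were all below the control libraries and close to each other. Between these groups 19.2% of all genes tested did not overlap, and the ratio was not tested. In the base the ratio was 1.38, 0.521 and 1.08, so base replicate 2 was the only library of the 9 with a ratio under 1. Base replicate 1 lay within the range of the MCAGF8 vault.

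**Figure D4:**
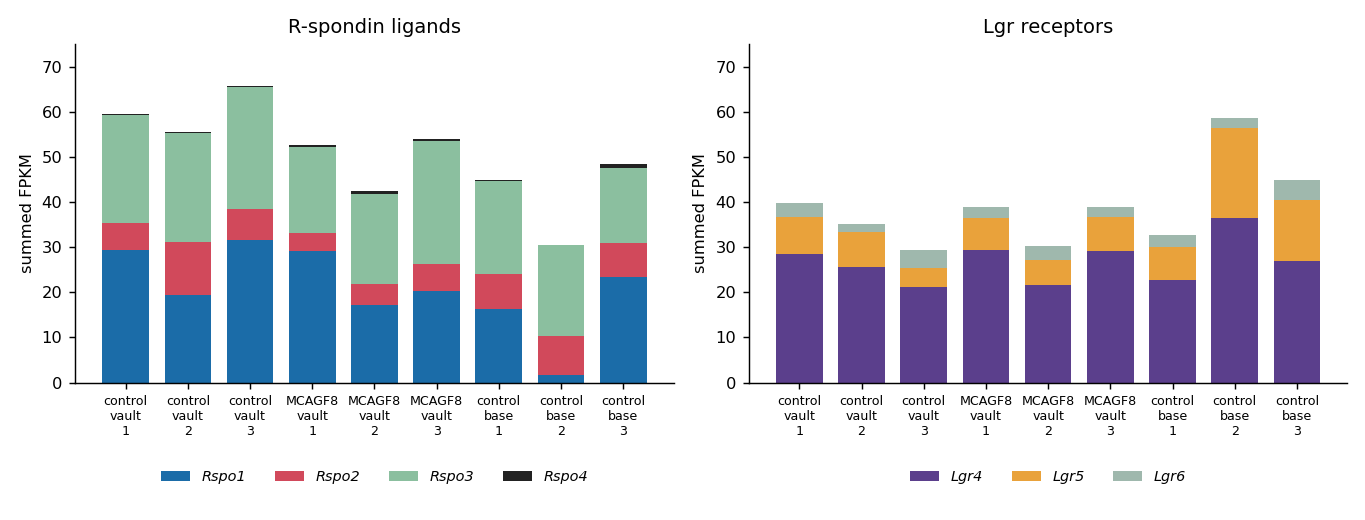
Summed FPKM of the R-spondin genes and of the Lgr genes in each of the 9 libraries (linear axis from 0), stacked by gene. The R-spondin sums are 42.5 to 54.0 in the MCAGF8 vault and 55.6 to 65.7 in the control vault. They are not rescaled for the unequal FPKM sums of the libraries, and the separation of the vault groups depends on that scaling. Rspo1 is at 1.65 in control base replicate 2.

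The ligases that R-spondin and Lgr remove are next in the pathway. Rnf43, which is itself a Wnt target in several tissues, was at 2.10, 1.69 and 1.59 FPKM in the control vault, at 3.96, 4.15 and 5.84 FPKM in the MCAGF8 vault and at 3.40, 5.48 and 6.41 FPKM in the control base. Both the mutant vault and the base were above all control vault libraries. Rnf43 was higher in the base than in the control vault by 1.10 ± 0.258 and passed the test (adjusted p = 0.0781), but it lost the call in 13 of 17 alternatives, in which its adjusted p ran from 0.0303 to 0.280. The vault difference of 1.01 ± 0.258 (adjusted p = 0.238, and 0.118 to 0.707 over the alternatives) did not pass. Znrf3, the partner ligase, was at 6.18, 4.28 and 3.78 FPKM in the control vault, 7.17, 4.83 and 7.49 in the mutant vault and 4.26, 7.72 and 6.76 in the base, with overlapping groups and a vault difference of 0.39 (adjusted p = 0.969). The epidermal marker sums of the mutant vault were also above all control vault values. In control base replicates 1, 2 and 3 they were 630.7, 124.7 and 826.3 FPKM, so replicate 2 lay within the control vault range of 39.9 to 144.1. The part of epidermis in the Rnf43 values was not tested. The co-receptors Lrp5 and Lrp6 passed in no comparison. Lrp5 averaged 42.6, 41.8 and 34.8 FPKM and Lrp6 34.2, 39.0 and 31.5 FPKM in control vault, mutant vault and control base.

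Among 50 other genes of the pathway, 46 were tested, and the study had picked several of them on these same samples, so their counts are not independent evidence of a direction. Between MCAGF8 and control vault 8 of 46 (17.4%) rose and none fell, where 0.604% of all genes were called, 43 higher and 70 lower. By sign alone 30 of the 46 were higher and 16 lower. A further 13 had an unadjusted p under 0.05 without passing, of which 9 were higher and 4 were lower, namely the receptor Fzd5 (-0.96, adjusted p = 0.160), the ligand Wnt2 (-0.93, adjusted p = 0.668), the transcription factor Tcf7 (-1.41, adjusted p = 0.187) and the cyclin Ccnd1 (-0.65, adjusted p = 0.380). Wnt ligands gave 5 of 15 (Wnt3, Wnt3a, Wnt4, Wnt5a and Wnt7b), Frizzled receptors 1 of 10 (Fzd10) and Wnt targets and feedback genes 2 of 13 (Apcdd1 and Sp5). The median difference was 0.57 for the Wnt ligands, 0.64 for the targets and 0.03 for the Frizzled receptors, against -0.01 for all genes.

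Wnt3, a ligand of the surface ectoderm, had the largest difference at 1.93, from 0.258 to 3.68 FPKM (adjusted p = 0.0566). Apcdd1, a Wnt inhibitor that is itself a Wnt target, followed at 1.80, from 24.4 to 87.3 FPKM (adjusted p = 0.0723). The ligand Wnt4 rose by 1.74, from 2.15 to 9.48 FPKM (adjusted p = 0.0374), and the target transcription factor Sp5 by 1.73, from 0.658 to 4.61 FPKM (adjusted p = 0.0723). Wnt7b, a ligand of the epidermis, rose by 1.58, from 1.93 to 7.73 FPKM (adjusted p = 0.0373). The epidermal marker sums, in which 14 of 15 genes were higher and 2 (Krt5 and Pkp1) passed the test, moved in the same direction, and their part in these differences was not tested. The count of 8 went to 0 when any mutant vault library, or control vault replicate 1 or 3, was left out, to 5 without control base replicate 1, and to 13 without control base replicate 2. Apcdd1 and Sp5 also lost their calls without control vault replicate 2 or control base replicate 1. The count was 0 too in a per-gene linear model without moderated variances.

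Between MCAGF8 vault and control base 12 of 46 (26.1%) rose and none fell, where 8.39% of all genes were called, 558 higher and 1013 lower. A further 11 had an unadjusted p under 0.05 without passing, 6 higher and 5 lower. Here the targets led, with 6 of 13 called (Axin2, Nkd1, Nkd2, Apcdd1, Sp5 and Wif1), beside 5 Wnt ligands and Fzd10. The largest differences were 1.63 for Apcdd1 (adjusted p = 0.0185), 1.47 for the receptor Fzd10 (adjusted p = 0.0239), 1.36 for Wnt3 (adjusted p = 0.0380), 1.34 for Wnt5a (adjusted p = 0.0114) and 1.18 for Sp5 (adjusted p = 0.0554). The count of 12 went to 5 without mutant vault replicate 1 and to 7 without replicate 2. Wnt3 lost its call without any one of the mutant libraries, Sp5 without mutant replicate 1 or 2 or base replicate 1 or 3, and Fzd10 without mutant replicate 1. Between control base and control vault 3 were called higher in the base (Rnf43, Wnt4 and Wnt7b) and 3 lower (Wnt2, Wnt2b and Wif1), which is 13.04% where 3.06% of all genes were called, 347 higher and 226 lower. Wnt2, a ligand, was at 18.1 FPKM in the control vault and 4.34 in the base, a difference of -1.99 (adjusted p = 0.0384), and Wif1, a secreted Wnt inhibitor, was at 43.9 and 19.5 FPKM, a difference of -1.20 (adjusted p = 0.0969) that lost its call in 14 of 18 alternatives. Wnt2b differed by -1.48 (adjusted p = 0.0262), while Wnt7b and Wnt4 were higher in the base by 1.31 (adjusted p = 0.0198) and 1.24 (adjusted p = 0.0485). The count of 6 was 1 or 2 when any control vault library was left out, 3 without mutant vault replicate 1, and 0 when only the libraries of these 2 groups were fitted.

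**Figure D5:**
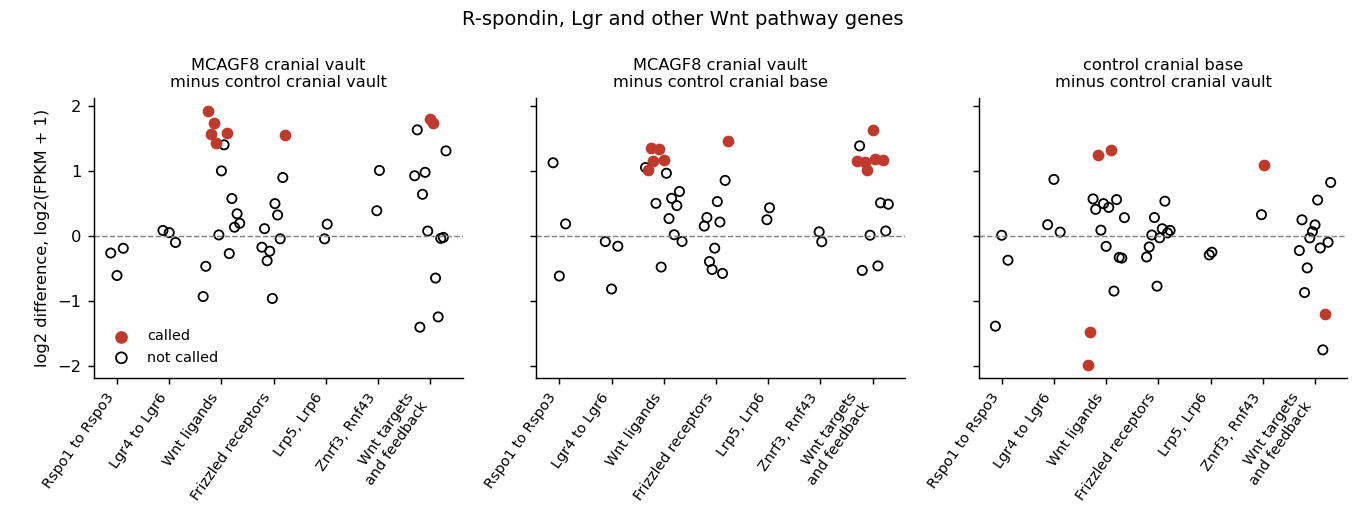
Difference in log2(FPKM + 1) for the R-spondins, Lgr receptors and other pathway genes, grouped by role, with 1 panel for each of the 3 comparisons. Filled points are genes that passed the test. In MCAGF8 vault minus control vault the 8 filled points are 5 Wnt ligands, Fzd10, Apcdd1 and Sp5, all above 0. MCAGF8 vault minus control base has 12, all above 0. Control base minus control vault has 3 above 0 and 3 below (Wnt2, Wnt2b and Wif1). No R-spondin or Lgr gene is filled in any panel.

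Other partners of these proteins were measured too. Gpc3, a heparan sulphate proteoglycan, was abundant at 724.7, 688.9 and 550.3 FPKM in control vault, mutant vault and base, and Sdc4, a syndecan to which R-spondin can bind, was at 31.8, 34.9 and 38.1 FPKM. Ndp, which encodes the Wnt-like ligand norrin, was at 0.976, 1.35 and 3.24 FPKM, and Tnfsf11, which encodes RANKL, was at 0.870, 0.543 and 1.36 FPKM. None of these 4 genes was called in any comparison.

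The genes whose pattern over the 9 libraries was most like that of a member were found by Pearson's r of log2(FPKM + 1) among 11312 genes. They are given as a description, since the libraries share tissue mixtures. Rspo1 was most like Osr2 (r = 0.968), Gfra4 (0.942) and Prrx2 (0.928), and Osr2 and Prrx2 encode transcription factors of craniofacial mesenchyme. Rspo2 was most like Hspd1 (0.954), Myh7 (0.944) and the pseudogene Hspd1-ps3 (0.934), of which Myh7 encodes a myosin of slow muscle and Hspd1 shares sequence with its pseudogene. Rspo3 was most like Diaph3 (0.900), Dpt (0.891), a gene of dermal fibroblasts, and Il17rc (0.855). Lgr5 was most like Tmod2 (0.983), Stk38l (0.979) and Nav2 (0.969), and Lgr6 was most like Hira (0.947), Mtf1 (0.946) and Fam102a (0.924).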

How the data were processed

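RNA from 9 pools of E14.5 mouse tissue was made into stranded mRNA libraries and read as single 151-base reads. Per the study's methods, the authors mapped reads with gSNAP, obtained the deposited FPKM values with Cufflinks and tested them by ANOVA in R. The sources used here give no tool version, genome build or annotation. FPKM values keep no read counts here, so the depth of a library cannot be read from them and values carry no counting error.

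Groups came from the sample labels. Rows repeating an identifier (63 of 43611) were summed, and 9 genes with the placeholder 999999999 were left out. No member was affected. Testing was limited to genes whose mean over 9 libraries reached 0.5 FPKM, and was done on log2(FPKM + 1) with limma 3.58.1 in R 4.3.3 (1 mean per group, moderated variances with trend, two-sided). Calls needed both p under 0.05 before adjustment and, after Benjamini-Hochberg adjustment over all genes tested, p under 0.1. The fit was tested on simulated data. Nothing says that the pools share no embryos or litters, so p-values measure the spread between pools. The members and lists were chosen with earlier results of these data known. Named genes were the 7 members, Znrf3, Rnf43, Lrp5 and Lrp6, up to 5 called pathway genes with the largest differences per comparison, and the 3 genes most like each member tested among those with a symbol and a mean FPKM of at least 5. Those for Lgr4 are not reported here. The other partners and relatives of the family, and genes named to list a count, were named outside that rule, after their values were seen. Same-numbered libraries correlated in their deviations from group means at r from -0.549 to 0.37, and the numbers were not taken as pairs. Alternatives covered the pseudocount, filter, scaling, libraries fitted, replicate block, moderation, repeated rows, thresholds and leaving out each library. Pathway alternatives were added after seeing the data.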

Additional observations from a re-analysis of the deposited data

How the results depend on the processing

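The count of members called was 0 in 19, 18 and 18 of 20 alternatives for MCAGF8 vault minus control vault, MCAGF8 vault minus control base and control base minus control vault. With the unadjusted p alone it was 1, 2 and 1, and leaving out each library gave 0 to 0, 0 to 1 and 0 to 1, the 1 being Lgr5 without control base replicate 1. With a replicate block it was 0 in all 3, while the count over all genes was 19, 918 and 234 against 113, 1571 and 573 without the block. Same-numbered libraries of different groups correlated at r from -0.549 to 0.37, and libraries of other numbers at r from -0.482 to 0.563. The cause of the lower counts was not tested. Of 321 alternative values of the differences of the 6 members tested, 300 kept their direction and side of the threshold, 2 passed it and 19 reversed. Rspo4 has no main test. Of its 51 alternative values, 49 moved by less than the spread between libraries, and 1 of these changed sign, from 0.16 to -0.068 in base minus control vault without control base replicate 3. The others were 1.18 in mutant minus control vault and 0.86 in mutant vault minus base, both with a pseudocount of 0.1.

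After rescaling to equal FPKM sums, Lgr6 in mutant minus control vault was 0.021, Lgr4 in mutant vault minus base 0.12 and Rspo2 in base minus control vault -0.024, with Rnf43 in mutant vault minus base at 0.077. After quantile normalization, Lgr6 was 0.15 in mutant vault minus base and -0.23 in base minus control vault, Rspo2 was -0.16 in the latter, and Rnf43 was 0.17 in mutant vault minus base. Leaving out each library in turn gave ranges across 0 for mutant minus control vault in Lgr4 (-0.030 to 0.22), Lgr5 (-0.22 to 0.21) and Lgr6 (-0.36 to 0.10). For mutant vault minus base the ranges were -0.24 to 0.092 for Lgr4, -1.17 to -0.51 for Lgr5, -0.30 to 0.057 for Lgr6 and -0.31 to 0.067 for Rnf43. For base minus control vault they were -0.15 to 0.26 for Rspo2, -0.010 to 0.32 for Lgr4, 0.56 to 1.22 for Lgr5 and -0.20 to 0.26 for Lgr6. None of these reversed differences was called, and their causes were not tested.

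Counts over all genes in the same order of comparisons were 71, 834 and 291 with a mean FPKM of at least 5, 174, 875 and 108 with only the libraries of both groups compared, 0, 869 and 257 without moderation, 1186, 3675 and 2396 by unadjusted p, and 35, 941 and 255 at an adjusted p under 0.05. For the vaults they were 191 with a pseudocount of 0.1 and 67 without the filter. Leaving out each library gave 11 to 231, 559 to 4580 and 132 to 1322, the highest each time without control base replicate 2. The lowest came without control vault replicate 1 or 3, MCAGF8 vault replicate 1 and control vault replicate 3. The pathway counts of 8, 12 and 6 were 0, 8 and 3 with the block, 5, 13 and 4 without the filter, and 2, 8 and 4 at an adjusted p under 0.05. By unadjusted p they were 21, 23 and 13. With 3 pools per group and depth unknown, these data limit what can be said of low genes such as Rspo4.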

Other observations

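The nearest relatives of Lgr4, Lgr5 and Lgr6 are the leucine-rich repeat receptors of glycoprotein hormones and relaxin-type peptides, and none of these 5 genes passed the filter on low values. Lhcgr, the luteinising hormone receptor, averaged 0.0906, 0.483 and 0.115 FPKM in control vault, MCAGF8 vault and control base, with mutant libraries between 0.370 and 0.708 and control vault libraries between 0.0746 and 0.102. Rxfp2, a receptor of an insulin-like peptide, averaged 0.182, 0.0970 and 0.721 FPKM. Tshr, the thyrotropin receptor, averaged 0.327, 0.174 and 0.445 FPKM, and Rxfp1, a relaxin receptor, 0.0659, 0.303 and 0.0761 FPKM. Fshr, the follicle-stimulating hormone receptor, was listed at 0 in all MCAGF8 libraries and reached 0.0254 FPKM at most in the others. These levels were not tested.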
